A study of Mus musculus with 6 samples.

Results

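Immediate early genes were examined in sorted cortical astrocytes through 10 members, Fos, Fosb, Jun, Junb, Atf3, Egr1, Nr4a1, Ier2, Dusp1 and Arc, taken as the rows of the deposited table that carry these symbols. All 10 were found among 43383 rows. The study asked whether astrocytes of the upper and the deep cortical layers differ in gene expression. Upper-layer astrocytes (ULAs, layers II–IV) and deep-layer astrocytes (DLAs, layers V and VI) came from the somatosensory cortex of 4-week-old male mice of the Aldh1l1-eGFP genotype, with 3 libraries per layer, 1 from each layer of each of 3 brains. All 6 libraries share the transgene, in which the Aldh1l1 promoter drives eGFP and so marks astrocytes, and the labels name no stimulus or drug. Astrocytes of layer I, of the white matter and of the strip where the upper and deep blocks met are not represented, since that tissue was discarded at dissection. Slices were dissociated and GFP-positive cells were isolated by fluorescence-activated cell sorting before RNA was taken, so the values describe cells after this handling, and no library of undissociated tissue was analysed here.

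Immediate early genes are switched on within minutes of a stimulus without the need for new protein synthesis. Calcium and growth factor signals reach them through MAP kinases and through the factors CREB and SRF, which bind the cyclic AMP response element (CRE) and the CArG box. Many of their products are transcription factors, among them the Fos and Jun families that pair to form AP-1, and others such as the phosphatase Dusp1 shut the signal down again. In the cortex they are best known as markers of recently active neurons, and glial cells can express many of them too.

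The promoter windows of the members are shown because these genes are read as a class on account of such elements. The RefSeq promoter table (build GRCm38.p6, a later build than the mm9 of the expression table) held a window of 300 bases, ending 50 bases into the transcript, for 7 of the 10 members, and none was listed for Egr1, Ier2 or Arc. The 4 windows below belong to the AP-1 genes Fos, Fosb and Jun and to Dusp1. Fos and Fosb belong to 1 family, in which Fos was measured and Fosb was listed at 0, and Jun and Dusp1 are the members with the highest levels. Capitals mark the CRE half-site (TGACG on either strand), the full CRE (TGACGTCA) and the TATA box (TATAAA).
Fos (chr12:85473640-85473939, + strand): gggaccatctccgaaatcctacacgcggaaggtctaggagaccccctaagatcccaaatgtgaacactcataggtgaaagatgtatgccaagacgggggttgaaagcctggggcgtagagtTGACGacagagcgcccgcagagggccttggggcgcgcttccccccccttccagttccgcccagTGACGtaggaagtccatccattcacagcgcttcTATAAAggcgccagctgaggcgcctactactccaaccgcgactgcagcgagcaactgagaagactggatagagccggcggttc
Fosb (chr7:19309996-19310295, - strand): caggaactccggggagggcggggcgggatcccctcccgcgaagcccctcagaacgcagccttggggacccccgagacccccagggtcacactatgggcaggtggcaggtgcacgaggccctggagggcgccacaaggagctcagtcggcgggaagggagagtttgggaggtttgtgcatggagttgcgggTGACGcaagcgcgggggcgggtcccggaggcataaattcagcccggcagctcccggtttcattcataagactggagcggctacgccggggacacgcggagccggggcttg
Jun (chr4:95052173-95052472, - strand): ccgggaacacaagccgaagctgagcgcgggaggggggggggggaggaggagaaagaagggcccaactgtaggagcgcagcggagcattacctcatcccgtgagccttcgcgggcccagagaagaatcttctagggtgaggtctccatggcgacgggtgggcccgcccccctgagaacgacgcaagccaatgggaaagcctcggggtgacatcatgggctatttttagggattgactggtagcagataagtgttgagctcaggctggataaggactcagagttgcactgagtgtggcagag
Dusp1 (chr17:26508423-26508722, - strand): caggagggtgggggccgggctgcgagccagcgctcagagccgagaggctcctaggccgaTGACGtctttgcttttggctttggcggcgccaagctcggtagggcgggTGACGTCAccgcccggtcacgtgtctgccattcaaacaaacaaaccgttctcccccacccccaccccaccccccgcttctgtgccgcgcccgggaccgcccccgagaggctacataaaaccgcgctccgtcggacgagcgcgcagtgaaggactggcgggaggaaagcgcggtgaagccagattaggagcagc

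A CRE half-site was present in 6 of the 7 windows, all but that of Jun, against 20.812% of 32851 mouse promoter windows of this length. The full CRE, which contains a half-site on each strand, was found in Dusp1 alone, from position −143 to −136 counted from the start, and in 1.79% of all windows. The TATA box letters were found in Fos, where they began at position −33, and in Junb, where they began at the annotated start itself. They occurred in 13.616% of all windows. The GC box (GGGCGG on either strand) was found in 6 of 7 windows, all but that of Junb, against 35.658% of all windows. No window held the AP-1 site (TGANTCA) or a CArG box, which 7.808% and 1.629% of all windows held; this says only that these letters lie outside the 7 windows. These matches are descriptions of sequence, and binding was not measured.

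**Figure D1:**
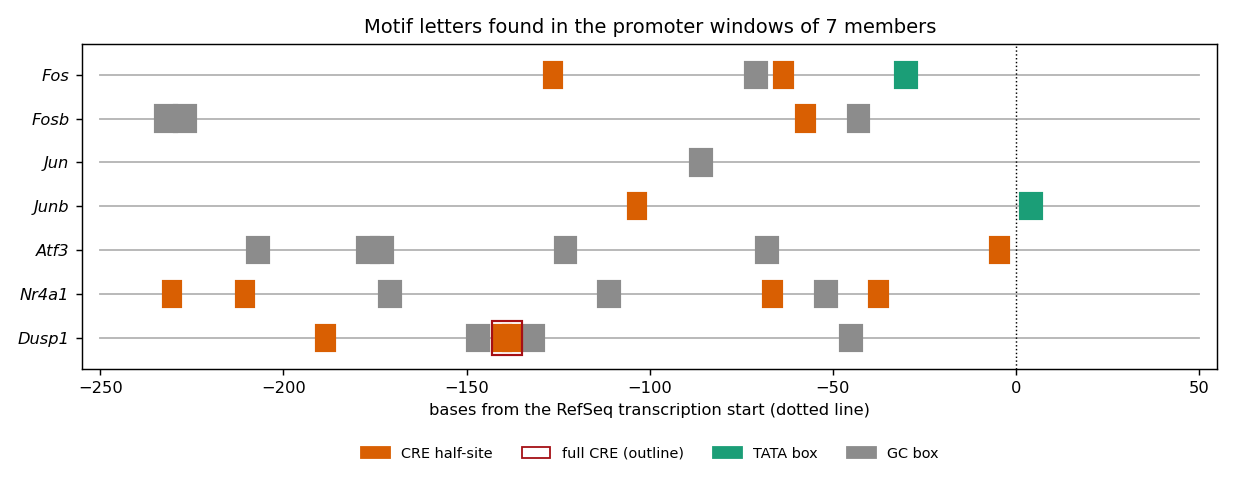
Positions of motif letters in the promoter windows of 7 members, with the distance from the RefSeq start in bases on the x axis and 1 line per gene. CRE half-sites lie in 6 windows, and the full CRE, drawn as an outline, lies only in Dusp1.

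Levels are given as RPKM, which divides an mRNA's reads by its length and by the mapped reads of the library, so that genes can be compared. The libraries held 19.657 to 29.558 M reads, with the lowest depth in the DLAs of brain 2. The astrocyte label held in every library, with 10 astrocyte markers summing to between 10619.61 and 12172.72 RPKM against 12.7 to 19.94 RPKM for 10 neuron markers and 63.63 to 77.96 RPKM for 10 microglia markers. The sums of oligodendrocyte lineage markers were higher, at 213.03 to 270.96 RPKM for 10 precursor markers and 89.31 to 295.66 RPKM for 10 oligodendrocyte markers. The precursor sum rested mainly on Tmem100 and Olig1, with means of 148.268 and 96.762 RPKM. The means of the other precursor markers ran from 0.013 (Gpr17) to 1.073 RPKM (Bcas1). This sum therefore does not place precursor mRNA above that of neurons or microglia. The oligodendrocyte sum was 93.49, 89.31 and 187.49 RPKM in the ULAs of brains 1 to 3 and 183.22, 210.55 and 295.66 RPKM in the DLAs, so it was higher in the DLAs of each brain and highest in brain 3. In sorted populations of this kind, fewer expressing cells and less mRNA per cell cannot be told apart.

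The members spanned the whole range from none to abundant mRNA. Mean levels fell from Dusp1 through Jun, Ier2, Junb, Fos, Nr4a1, Arc, Egr1 and Atf3 to Fosb. Ier2, Junb and Fos had overlapping values and so had Nr4a1, Arc and Egr1, so the order within each of these trios is not larger than the spread between libraries. Of the 10 members, 2 had a mean of at least 10 RPKM, 4 lay between 1 and 10, 2 between 0.1 and 1 and 2 under 0.1. Among 45 other immediate early genes the same classes held 7, 17, 9 and 12 genes. The most abundant of those were Bhlhe40, a clock-linked repressor, with a mean of 93.473 RPKM, Cyr61, a secreted matrix protein, with 47.215 RPKM, and Nfkbia, the inhibitor of NF-κB, with 41.067 RPKM. The neuronal activity factor Npas4 was listed at 0 in every library.

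**Figure D2:**
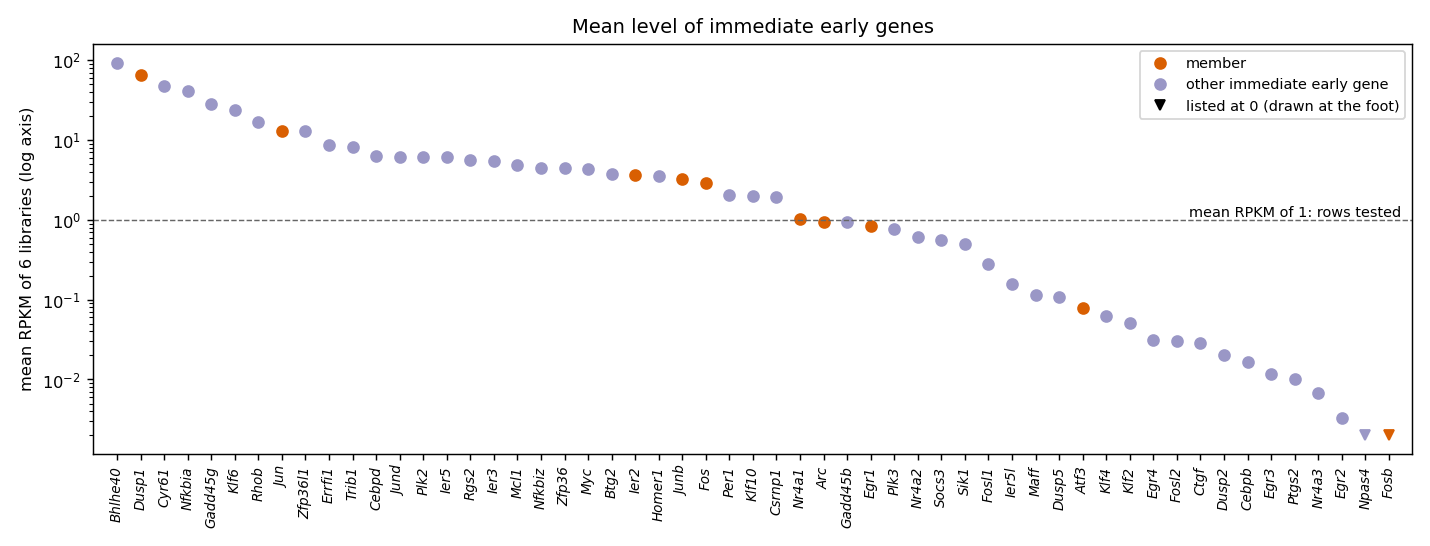
Mean RPKM of the 6 libraries (log axis) for the 10 members and 45 other immediate early genes, in falling order. Dusp1 and Jun stand among the abundant genes, 6 members lie around or above 1 RPKM in the middle of the range, and Fosb and Npas4, drawn at the foot, are listed at 0.

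Fos encodes the founding partner of AP-1 and is the gene most used to mark stimulated cells. Its mRNA (chr12:86814851-86818219 in mm9) reached 1.97, 3.48 and 3.57 RPKM in ULAs, given here and throughout in the order of brains 1, 2 and 3, and 1.93, 4.34 and 2.13 RPKM in DLAs. Both layers of brain 1 were low, the DLAs of brain 2 were highest and the layers overlapped. The mean was 3.01 ± 0.90 RPKM (SD, n = 3) in ULAs and 2.80 ± 1.34 in DLAs, resting on 101 to 200 reads per library. The layer difference was 0.10 on the log2(RPKM + 1) scale (SE 0.17, 95% interval −0.29 to 0.49, adjusted p = 0.812 by limma).

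Fosb, the close relative of Fos, was listed at 0 in all 6 libraries. The depth allowed 0 reads in the ULAs of brain 1 and the DLAs of brain 2 and at most 1 read in each of the others. The upper bound of the 95% Poisson interval of these reads was 0.04 to 0.058 RPKM depending on the library, while Fos was measured at 1.93 RPKM or more. These bounds and the read numbers cover counting error only.

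Jun and Junb encode the Jun partners of AP-1. Jun (chr4:94715727-94718913) was measured at 10.04, 17.64 and 10.57 RPKM in ULAs and at 12.53, 19.75 and 8.43 RPKM in DLAs. The libraries of brain 2 were the highest in both layers and lay clear of the other 4. The layer means of 12.8 ± 4.24 and 13.6 ± 5.73 RPKM (SD, n = 3) differed by −0.05 on the log2 scale (SE 0.14, 95% interval −0.36 to 0.26, limma adjusted p = 0.89). Junb (chr8:87500808-87502647) was measured at 2.30, 5.08 and 2.68 RPKM in ULAs and at 3.12, 3.75 and 2.57 RPKM in DLAs. Brain 2 was again highest in both layers, by a wider margin in ULAs, and the layer difference was 0.03 (SE 0.16, 95% interval −0.34 to 0.39, limma adjusted p = 0.954).

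Atf3, a stress-induced factor that can pair with Jun proteins, was close to the limit of the data. It was listed at 0.12, 0.03 and 0.11 RPKM in ULAs and at 0, 0.10 and 0.11 RPKM in DLAs, which is at most 7 reads in a library. No order of the libraries can be read at this depth.

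Egr1 and Nr4a1 encode a zinc finger factor and an orphan nuclear receptor. Egr1 was measured at 0.26, 2.14 and 0.71 RPKM in ULAs and at 0.83, 0.85 and 0.25 RPKM in DLAs. The ULAs of brain 2 stood highest, and the ratio of the highest to the lowest library, 8.56, was the largest among members with a value above 0 in every library. Nr4a1 (chr15:101097277-101105225) was measured at 0.79, 1.40 and 1.2 RPKM in ULAs and at 0.98, 1.08 and 0.75 RPKM in DLAs, from 48 to 89 reads per library. Its layers overlapped, with a difference of 0.13 (SE 0.17, 95% interval −0.25 to 0.51, limma adjusted p = 0.751).

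Ier2, a small nuclear protein induced by growth factors, was measured at 2.54, 4.43 and 3.37 RPKM in ULAs and at 3.67, 4.67 and 3.37 RPKM in DLAs. Its locus is chr8:87185230-87186751. The layers overlapped, brain 2 was highest in each, and the difference was −0.15 (SE 0.15, 95% interval −0.48 to 0.17, limma adjusted p = 0.641).

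Dusp1, which removes phosphate from MAP kinases and so ends the signal that induces this class, was the most abundant member. It lay above 91.3% of the rows tested and rested on 1927 to 4080 reads per library. Its mRNA (chr17:26642536-26645417) was measured at 40.58, 81.99 and 64.00 RPKM in ULAs and at 56.61, 91.99 and 54.45 RPKM in DLAs. Brain 2 was highest in both layers. The layer means of 62.2 ± 20.8 and 67.7 ± 21.1 RPKM (SD, n = 3) overlapped, with a difference of −0.14 (SE 0.13, 95% interval −0.43 to 0.16, limma adjusted p = 0.652).

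Arc, a synaptic protein that neurons transcribe on activity, was measured at 0.33, 0.39 and 1.91 RPKM in ULAs and at 0.88, 0.78 and 1.43 RPKM in DLAs. Here brain 3 was highest in both layers, unlike Jun, Junb, Ier2, Dusp1, Nr4a1 and Egr1, as it was for 17.6% of the rows tested. The oligodendrocyte marker sum given above was highest in brain 3 in both layers too. So were the sums of microglia, oligodendrocyte precursor and red blood cell markers and of heat shock genes, so this order was not particular to 1 cell type. The neuron marker sum of brains 1, 2 and 3 was 19.94, 15.75 and 19.59 RPKM in ULAs and 12.7, 15.03 and 12.88 RPKM in DLAs. The part of other cell types in the Arc values was not tested.

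**Figure D3:**
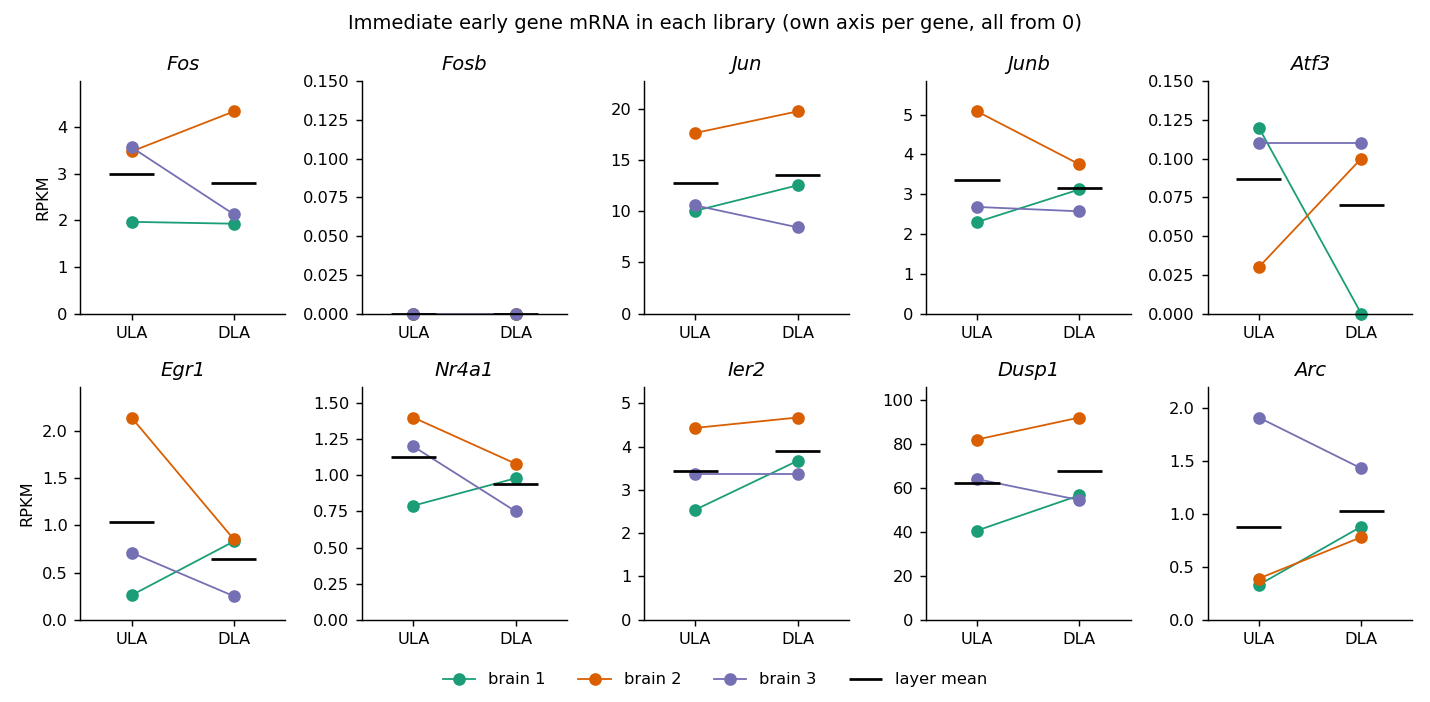
RPKM of each member in the 6 libraries, with 1 panel and 1 axis from 0 per gene, lines joining the 2 layers of a brain and black bars at the layer means (n = 3). The layers overlap in every panel, and brain 2 is highest in both layers for Jun, Junb, Egr1, Nr4a1, Ier2 and Dusp1. For Nr4a1 in both layers and for Egr1 in DLAs, this lead lies within counting error.

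No tested member passed the test for a layer difference. The test covered the 6 members with a mean of at least 1 RPKM, namely Fos, Jun, Junb, Ier2, Nr4a1 and Dusp1. Of these, 0 passed at an adjusted p under 0.05 by limma and 0 at an unadjusted p under 0.05, while 1.63% and 16.4% of the 13999 rows tested did. None of the 6 moved the same way in all 3 brains, against 38.4% of rows, and in none did the layers separate, against 15.9% of rows. The 95% intervals of the 6 reached down to between −0.48 (Ier2) and −0.25 (Nr4a1) and up to between 0.16 (Dusp1) and 0.51 (Nr4a1) on the log2(RPKM + 1) scale, so differences of that size in either direction remain possible. Without the filter on low values, the differences of Egr1, Arc and Atf3 were 0.23, −0.20 and 0.02 (limma adjusted p = 0.8, 0.74 and 0.904), and Fosb could not be tested.

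In each of the 6 tested members, brain took a larger share of the variance than layer, as it did in the median row, and 2 of them passed the test for brain. A moderated F test of the brain terms in the same fit gave an adjusted p of 0.0354 for Jun and 0.0456 for Dusp1, so 2 of 6 members passed, where 2.85% of all rows did. At an unadjusted p under 0.05, 4 of 6 passed (Jun, Dusp1, Fos and Junb), where 16.1% of rows did. Both lie just inside the threshold. Jun kept its call in 8 of 13 alternatives and Dusp1 in 4, the range of the adjusted p being 0.000551 to 0.483 for Jun and 4.49e-06 to 0.445 for Dusp1. Fos, Junb, Ier2 and Nr4a1 did not pass (limma adjusted p = 0.216, 0.249, 0.366 and 0.772). Brain accounted for 90.2% of the variance of Jun and 83% of that of Dusp1, and layer for 0.4% and 3.1%, against medians of 42.1% and 17.8% over all rows. The brain share was 74.6% for Fos, 78.1% for Junb and 72.9% for Ier2, and that of Nr4a1, 43.5%, with 16.7% for layer, was close to the median row. Brain has 2 degrees of freedom in the model and layer 1.

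The brain that stood apart was brain 2, a pattern seen after the values had been examined. It was highest in both layers for 5 of the 6 tested members, where 8.89% of rows showed this. The exception was Fos, whose ULA value in brain 3 (3.57 RPKM) exceeded that in brain 2 (3.48 RPKM). Against the mean of brains 1 and 3, Jun in brain 2 was 1.71-fold higher in ULAs and 1.89-fold higher in DLAs. Dusp1 was 1.57-fold and 1.66-fold higher. On the log2 scale over both layers, the differences of Jun, Dusp1, Junb, Fos, Ier2 and Nr4a1 were 0.80, 0.70, 0.56, 0.55, 0.40 and 0.22 (SE 0.14 to 0.19), the first 4 of which lay at or above the 99th percentile of all rows. The members are not independent of each other: their pairwise Pearson r over the 6 libraries, which share brains and depths, ran from 0.591 to 0.963.

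**Figure D4:**
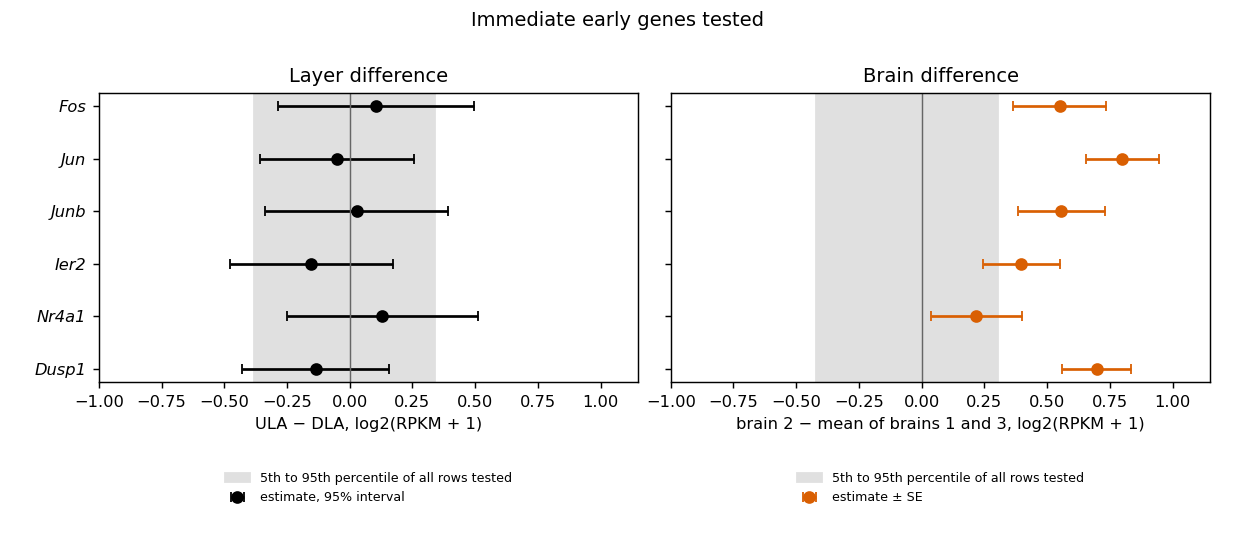
Layer difference with its 95% interval (left) and difference of brain 2 from the mean of brains 1 and 3 with its SE (right) for the 6 tested members, on the log2(RPKM + 1) scale. Grey bands hold the 5th to 95th percentile of all 13999 rows, and the layer estimates lie inside the band while 5 of the 6 brain estimates lie above it.

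Other values that could move with brain 2 were read beside this. The summed markers of neurons, microglia, endothelial cells, oligodendrocytes, oligodendrocyte precursors, pericytes and red blood cells were in no case highest in brain 2 in both layers. Of 8 heat shock genes tested, 0 were highest in brain 2 in both layers and 0 passed for brain, which for so few genes is near the 8.89% and 2.85% of all rows. The DLAs of brain 2 had the lowest depth, 19.657 M reads, and the ULAs of brain 2 had 25.62 M, between the other ULA libraries. Over the 12763 tested rows with a known GC content, the Spearman rho of the brain 2 difference was 0.136 with GC content and −0.12 with mRNA length. The part of depth in the brain difference was not tested.

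Of 45 other immediate early genes, 24 were tested, 0 were higher in ULAs and 2 were higher in DLAs, where 0.714% and 0.914% of rows passed in those directions. The 2 were Gadd45g, a stress and growth arrest protein, with 24.04, 14.77 and 20 RPKM in ULAs and 46.15, 31.22 and 31.41 in DLAs (log2 difference −0.86, SE 0.12, limma adjusted p = 0.00653), and Jund, the third Jun family gene. Jund was measured at 4.55, 0.71 and 5.87 RPKM in ULAs and at 13.76, 2.20 and 9.95 RPKM in DLAs (log2 difference −0.996, SE 0.16, limma adjusted p = 0.0148). Neither was called without the brain in the model. Some markers of other cells moved the same way. Of the tested markers, 7 of 9 for oligodendrocytes (median −1.05) and 3 of 4 for red blood cells (median −2.45) were higher in DLAs. Other lists leaned toward ULAs, with medians of 0.384 for neuron, 0.171 for pericyte and smooth muscle and 0.135 for microglia markers. Among them, Rgs5 of the pericyte list was higher in ULAs (log2 difference 0.771, limma adjusted p = 0.0455). The medians of endothelial and oligodendrocyte precursor markers were −0.272 and −0.077. The part of other cells in the Gadd45g and Jund values was not tested. The median layer difference of the 24 was −0.10, against −0.03 over all rows. By limma, 9 of the 24 had an unadjusted p under 0.05 for layer in either direction, where 16.4% of rows did.

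Brain 2 took opposite places within the Jun family. Jund was lowest in brain 2 in both layers (difference −1.92, SE 0.17, limma adjusted p = 0.00104 for brain), where Jun and Junb were highest, while brains 1 and 3 kept the same order in the 3 genes. Of the 24 other genes, 2 passed for brain, Jund and Ier3 (limma adjusted p = 0.0353 for Ier3), where 2.85% of rows did, and 14 had an unadjusted p under 0.05, where 16.1% of rows did. In 7 of the 24 (29.2%) brain 2 was highest in both layers, against 8.89% of rows. Brain 1 was highest in both layers in 7 of the 24 and brain 3 in 5, against 16.4% and 17.6% of rows. The median brain 2 difference of the 24 was −0.04, with 11 of 24 above 0. Of 26 tested upstream kinases and factors, 0 passed for layer, with a median of 0.11.

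**Figure D5:**
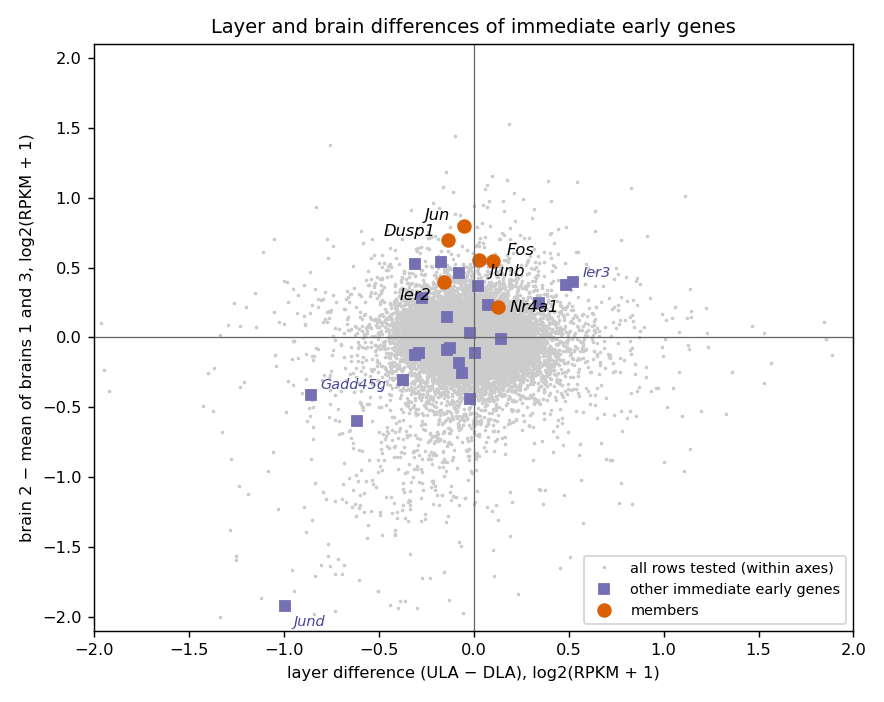
Layer difference (x axis) against the difference of brain 2 from brains 1 and 3 (y axis), both on the log2(RPKM + 1) scale, for all rows tested (grey), other immediate early genes (squares) and members (circles). The members lie above 0 on the y axis and near 0 on the x axis, and Jund lies at the lower left.

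The rows whose levels ran most like the mean standardized level of the 6 members were sought among those with a mean of at least 5 RPKM. They were 0610043K17Rik, Ccdc22, Tmem149, Sephs2, Anapc5, Mtmr11, Kctd21, 2010002N04Rik, Cops3 and Slc25a18, with Pearson r of 0.939 to 0.965 over 6 libraries. None of these belongs to the fixed gene lists. With 6 libraries and many rows searched, such values describe these libraries only.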

How the data were processed

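RNA-seq was measured in 6 libraries (SMART-Seq v4, Nextera XT, single reads of 36 bases). The authors deposited RPKM values per gene symbol, cut to 2 decimals, with bcl2fastq 1.8.4, CASAVA 1.8.2 and mm9 named in the submitters' processing notes; the aligner and counter are not given in the sources used here. Depth was recovered from the RPKM steps of rows of up to 500 bases (99.94 to 100% of values whole). The next best depth made 62.8 to 78.6% of values whole. Of 60 member values, 1 matched a read number only to within 0.01 RPKM.

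The 13999 rows whose mean RPKM was 1 or more were fitted as log2(RPKM + 1) by limma 3.58.1 in R 4.3.3 (eBayes with trend). Layer and brain were the terms, tests were 2-sided and p-values were Benjamini-Hochberg adjusted over all rows. The method was tested on simulated data, where small changes were mostly missed and, in part of the simulations, false calls took a larger share of all calls than the threshold implies, so calls just inside it are uncertain. Fold changes on this scale understate changes of low genes. Libraries of the same replicate number deviated together (r across genes 0.422, 0.333 and 0.341, against −0.199 to −0.16 otherwise), and the study's paired test makes the number the brain. An exact permutation test over 3 pairs cannot go below p = 0.25, so none is given.

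The genes named are the 10 members, list genes that passed (up to 5), the 3 most abundant of the other immediate early genes and the 10 rows most like the members. Members and lists were chosen with earlier results of these data known. Python 3.11.15 with pandas 2.3.3, numpy 2.4.6 and matplotlib 3.10.9 was used for the rest. Promoter windows are those of RefSeq, and their coordinates were not carried to mm9.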

Additional observations from a re-analysis of the deposited data

How the results depend on the processing

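The absence of layer calls among the members held in all 13 alternatives, and so did that among the upstream kinases and factors. The 2 brain calls among members fell to 1 with a pseudocount of 0.1, quantile normalization or the length and GC correction (chosen after seeing the data), and to 0 with no filter, no trend, the length correction or brain only in the model; leaving out 1 brain gave 0 to 3, with 1 without brain 1, 0 without brain 2 and 3 without brain 3. The differences of brain 2 themselves stayed at 0.797 to 0.853 for Jun and 0.66 to 0.742 for Dusp1 over the 10 alternatives that give one. The signs of uncalled layer differences turned when 1 brain was left out, with ranges of −0.224 to 0.07 for Jun (0.07 without brain 1, 0.001 without brain 2), −0.317 to 0.033 for Dusp1 (0.033 without brain 1), −0.138 to 0.2 for Junb (−0.138 without brain 2) and −0.117 to 0.283 for Fos (−0.117 without brain 3).

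With no replicate block, so without the pairing by brain, 0 members and 0 other immediate early genes were called for layer, against 0 and 2 with it, and calls over all rows fell from 100 higher in ULAs and 128 higher in DLAs to 23 and 18. With no filter all calls over all rows fell to 0, from 399 for brain, and the other immediate early genes had 0 calls for layer and 0 for brain. Those genes had 4 brain calls with a mean of at least 5 RPKM, quantile normalization or the length and GC correction, 6 at an adjusted p under 0.1, 0 with brain only, and 2 otherwise; leaving out 1 brain gave 3 to 5 for brain and 2 to 4 in DLAs. An adjusted p under 0.1 and the length and GC correction gave 1 higher in ULAs. Over all rows, calls in ULAs and DLAs were 68 and 77 with the length correction, 65 and 79 with no trend, 209 and 255 at an adjusted p under 0.1, and 426 and 687 without brain 3; brain calls were 48 with brain only, 673 at an adjusted p under 0.1 and 691 without brain 3. The cause was not tested. Depth limits Fosb and Atf3 most, at 0 to 7 reads.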
